A study of Mus musculus with 18 samples.

Results

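The genes followed through osteoclast induction were 10 markers of eosinophils, basophils and mast cells, namely Epx, Prg2, Prg3, Ear1, Ear2, Ear6, Mcpt8, Cpa3, Prss34 and Ms4a2. They were taken by gene symbol from a table of 34745 genes, each symbol matched 1 line, and 8 of the 10 were among the 14241 genes with enough counts for the test (Cpa3 and Ms4a2 were not). RNA sequencing was done on bone marrow-derived macrophages (BMDMs), cells grown from mouse marrow with M-CSF, a growth factor for macrophages. RANKL, a cytokine under which macrophages become bone-resorbing osteoclasts, was given together with M-CSF for 1 or 3 days, and M-CSF alone served as day 0. The 6 groups of 3 libraries were Zmat1 knockout (KO) and wild-type (WT) littermates on days 0, 1 and 3. No group was kept in M-CSF alone for 1 or 3 days, so RANKL and time in culture cannot be told apart in any comparison of days. Per the study's methods the knockout was global, on the C57BL/6 background, and marrow for BMDMs came from mice 4 to 8 weeks old. The labels do not say whether a library held cells of 1 mouse or of a pool, nor whether libraries with the same number on different days came from the same mouse. P-values therefore measure only the spread between these libraries.

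Eosinophils, basophils and mast cells are granule-bearing leukocytes of allergic and antiparasite responses, and eosinophils and basophils are made in the bone marrow. Their granules are filled with cationic proteins, ribonucleases and proteases whose genes are switched on while the cells form, and in the eosinophil lineage many of these transcripts are most abundant in precursors. Eosinophils are marked by eosinophil peroxidase (Epx), major basic protein (Prg2), its relative Prg3 and the eosinophil-associated ribonucleases (Ear genes). Basophils are marked by the granule proteases Mcpt8 and Prss34, while carboxypeptidase A3 (Cpa3) and Ms4a2, the beta chain of the high-affinity IgE receptor, are shared by basophils and mast cells. M-CSF does not maintain these lineages, whose growth depends on other cytokines such as IL-5 and IL-3.

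The positions below are those of the table, on the mouse build GRCm38. Prg2 (chr2:84980461-84983632) and Prg3 (chr2:84988215-84993886) lie side by side on the plus strand of chromosome 2. Ear1 (chr14:43818765-43875517), Ear2 (chr14:44102654-44103534), Ear6 (chr14:51853699-51854643) and Mcpt8 (chr14:56082166-56085216) are all on chromosome 14. Epx is at chr11:87864000-87875536, Cpa3 at chr3:20215620-20242181, Prss34 at chr17:25298394-25300161 and Ms4a2 at chr19:11615523-11623719. Ear1 overlapped 3 pseudogenes of the table (Ear-ps9, Ear-ps12 and Ang-ps2), and the other 9 overlapped no other gene. Reads of Ear1 and Ear2 cannot be fully told apart, since 57.4% of the 50-base windows of the longest Ear1 transcript and 41.5% of those of Ear2 were also found in another gene, mainly in each other, in Ear10 and in Ear-ps9. For Ear6 and Ms4a2 the share was 1.07% and 2.69%, and the other 6 genes shared no window.

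The start regions of the Ear genes and of Cpa3, Prss34 and Ms4a2 are shown because they carry a feature that several of the 10 genes had in common. RefSeq promoters (GRCm38.p6, 250 bases before and 50 after the RefSeq start of the gene) were matched by symbol for 9 of the 10, all but Prg2. For Ear1 and Ear6 this start lies inside the gene as counted. For Ear1 it is far from the minus-strand start of the counted gene at 43875517. The core GATAA, the letters read by GATA transcription factors, occurred on either strand in 7 of these 9 promoters (Prg3, Ear1, Ear2, Ear6, Cpa3, Prss34 and Ms4a2), against 25.4% of all 32851 promoters. The promoters of Epx and of the basophil gene Mcpt8 had no GATAA match, and that of Prg3, which had a match, is not printed. The longer AGATAA, which contains GATAA, occurred in 3 of 9 (Cpa3, Prss34 and Ms4a2) against 11.2%. A match is a run of letters and not a measured binding site. The 150 bases from 100 before to 50 after the start are printed 5′ to 3′ along each gene, with GATAA, or its reverse complement TTATC, in capitals.
Ear1, chr14:43819590-43819739, minus strand: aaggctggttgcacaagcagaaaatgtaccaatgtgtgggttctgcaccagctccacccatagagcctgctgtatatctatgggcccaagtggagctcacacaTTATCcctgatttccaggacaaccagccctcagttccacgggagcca
Ear2, chr14:44102554-44102703, plus strand: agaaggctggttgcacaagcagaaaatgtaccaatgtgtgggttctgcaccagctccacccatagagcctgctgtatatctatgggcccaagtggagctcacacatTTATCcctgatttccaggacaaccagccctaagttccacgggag
Ear6, chr14:51853668-51853817, plus strand: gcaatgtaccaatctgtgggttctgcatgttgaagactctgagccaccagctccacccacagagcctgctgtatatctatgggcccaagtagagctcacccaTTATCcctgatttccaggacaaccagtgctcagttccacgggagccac
Cpa3, chr3:20242132-20242281, minus strand: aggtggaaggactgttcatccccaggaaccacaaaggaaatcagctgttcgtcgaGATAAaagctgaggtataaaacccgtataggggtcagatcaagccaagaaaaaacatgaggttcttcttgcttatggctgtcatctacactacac
Prss34, chr17:25298294-25298443, plus strand: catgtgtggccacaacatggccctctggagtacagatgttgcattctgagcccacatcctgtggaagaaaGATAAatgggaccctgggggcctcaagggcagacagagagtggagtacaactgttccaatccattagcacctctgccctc
Ms4a2, chr19:11623670-11623819, minus strand: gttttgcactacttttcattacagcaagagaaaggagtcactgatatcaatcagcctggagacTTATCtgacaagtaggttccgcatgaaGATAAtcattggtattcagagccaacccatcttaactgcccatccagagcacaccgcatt
The 3 Ear promoters were near copies of each other. Over the full 300 bases, Ear1 and Ear2 were identical at 99.0% of 297 aligned bases, and Ear6 was identical to Ear1 at 92.8% of 279 and to Ear2 at 92.8% of 276. In all of them TTATC stood just after the start, while in Cpa3, Prss34 and Ms4a2 the match stood before it.

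Across the series, library totals ran from 13789775 to 17559958 counts. Zmat1, the targeted gene, was counted in every library, with a level in CPM (counts scaled to library size, the unit of all levels here except FPKM) of 5.13 ± 2.18 in the libraries labelled KO and 4.35 ± 2.74 in those labelled WT on day 0 (SD, n = 3), and 5.04 ± 0.54 against 3.26 ± 1.30 on day 3. It was not called between the labels on any day (edgeR, adjusted p from 0.616 to 0.93). Gene counts do not show which exons the reads came from, so every direction between KO and WT below is one between libraries labelled so. The titles of 5 libraries were written with a double hyphen (in KO library 2 of day 0 and libraries 1 and 2 of day 1, in WT library 1 of day 0 and library 1b of day 1). In these 5 the summed level of 7 erythroid genes was at most 1.00 CPM, and in the other 13 it was at least 15.6 CPM. WT day 1 had 2 libraries numbered 1, here 1a and 1b (double hyphen), and none numbered 3.

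Before RANKL the 10 genes spanned a wide range of levels. Per transcript length (the deposited FPKM), Prg2 was highest on day 0, with 114.8 ± 106.1 FPKM in KO and 18.8 ± 13.2 in WT (SD, n = 3). Ear2 followed with 36.8 ± 16.5 in KO and 9.30 ± 4.44 in WT, and Ear1 came next with 10.6 ± 8.79 and 1.38 ± 1.26. Epx, Prg3, Ear6, Prss34 and Mcpt8 formed a middle group, with means of 2.56 to 5.76 FPKM in KO and 0.71 to 0.94 in WT, and their library values overlapped one another within each label. Cpa3 had 0.86 ± 1.30 and 0.11 ± 0.02, and Ms4a2 was lowest with 0.04 ± 0.03 and 0.03 ± 0.02. The first 3 and the last 2 places were the same under both labels, and the libraries spread so widely that even Prg2 and Ear2 overlapped (23.1 to 231.0 against 23.2 to 55.1 FPKM in KO).

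**Figure D1:**
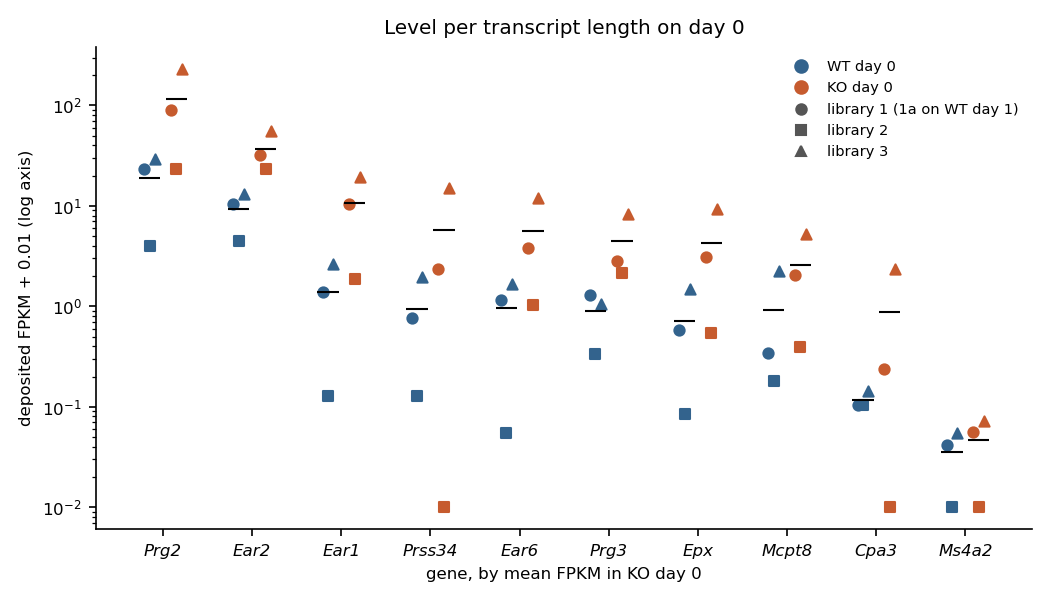
Deposited FPKM of the 10 genes on day 0, a level per transcript length, on a log axis after adding 0.01. Each point is 1 library (blue WT, orange KO) and each black line the mean of 3. Prg2 leads in both labels, Ms4a2 is last, and library 2 is the lowest point of its label for all 10 genes in KO and for all but Cpa3 in WT.

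The 3 granule proteins of eosinophils were called lower on day 3 of RANKL than on day 0 in both labels. Prg2, the major basic protein, had 274, 46 and 362 counts in WT libraries 1 to 3 on day 0 and 12, 7 and 7 on day 3. In KO it had 1099, 293 and 2754 on day 0 and 12, 7 and 57 on day 3. The days did not overlap within either label, although the day 0 libraries themselves ranged over 3.56 to 25.9 CPM in WT and 22.5 to 200.4 in KO. Fitted over all libraries, the log2 fold change came to -5.16 (SE 1.32, adjusted p = 0.00523, edgeR) in WT and -6.09 (SE 1.27, adjusted p = 0.00196) in KO, and both calls held with any 1 of the compared libraries left out.

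Epx, the peroxidase that makes halogen oxidants in eosinophil granules, had 23, 3 and 63 counts in WT on day 0 and 0 in all 3 libraries on day 3. In KO it had 128, 23 and 379 on day 0 and 0, 0 and 1 on day 3. Over the pooled WT libraries the level was at least 41.2-fold lower on day 3, against a floor of 3 counts over the group. In KO the ratio of pooled levels was 660.5 with a counting interval of 118.0 to 26137 (95%, exact), from 530 counts on day 0 and 1 on day 3. Epx was called in both labels (adjusted p = 0.0177 in WT and 0.0053 in KO, edgeR). Its call in WT was lost without WT day 0 library 3 (adjusted p = 0.0527).

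Prg3, a homologue of major basic protein in the same granules, had 20, 5 and 17 counts in WT on day 0 and 0 in every WT library on day 3, at least 19.4-fold lower. In KO it had 45, 36 and 131 on day 0 and 2, 0 and 2 on day 3, a log2 fold change of -5.90 (SE 1.04). It was called in both (edgeR, adjusted p = 0.00177 in WT and 0.000946 in KO), and these calls held with any 1 of the compared libraries left out.

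Of the 3 ribonucleases, Ear1 and Ear6 were at 0 in WT on day 3 and Ear2 was not. Ear1 had 24, 2 and 48 counts in WT on day 0 and 0 in all 3 on day 3, at least 34.3-fold lower. Ear6 had 26, 1 and 39 and then 0 in all 3, at least 30.6-fold lower. Both were called in WT (edgeR, adjusted p = 0.0165 for Ear1 and 0.0199 for Ear6), Ear6 no longer so without WT day 3 library 1 (0.0508) or library 3 (0.0512). In KO, Ear1 went from 187, 35 and 341 counts to 6, 0 and 17, a fitted log2 fold change of -4.91 (SE 1.44, adjusted p = 0.0161). Ear6 went from 89, 25 and 273 to 0, 4 and 8, with -5.27 (SE 1.56, adjusted p = 0.017). Leaving out library 3 of day 0, or library 1 or 2 of day 3, neither was called in KO (adjusted p from 0.0525 to 0.0564 for Ear1 and from 0.0575 to 0.0648 for Ear6). The count called in KO was then 3, of 8 genes tested without library 3 of day 0 and of 9 without either library of day 3.

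Ear2 kept the most counts of the ribonucleases. In WT it had 106, 44 and 139 counts on day 0 and 18, 6 and 4 on day 3 (log2 fold change -3.83, SE 1.11, adjusted p = 0.0105, edgeR). In KO it had 334, 253 and 564 on day 0 and 30, 18 and 290 on day 3, so KO day 3 library 3 stood at 16.4 CPM where the other 2 had 1.79 and 1.10. Whether the days overlapped in KO depended on the scaling, since the lowest library of day 0 stood at 19.4 CPM, above that library, and with the unadjusted library total as the scale the order was the other way (16.7 CPM on day 0 and 17.8 on day 3). The fitted log2 difference between the days was -2.12 (SE 0.94) and missed the threshold (adjusted p = 0.0809). With the replicate number as a block within each label Ear2 was called in KO (log2 fold change -2.81, adjusted p = 0.0142), as it was without KO day 3 library 3 (-4.27, adjusted p = 0.00483). Over all alternatives tried its adjusted p in KO ran from 0.00483 to 0.218.

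Both basophil proteases were low, and edgeR called neither within a label. Prss34, a tryptase-like protease of basophils, had 13, 2 and 35 counts in WT on day 0 and 0 in all 3 on day 3, at least 23.2-fold lower, and was not called (edgeR, adjusted p = 0.0918). In KO it had 41, 0 and 259 on day 0 and 4, 0 and 19 on day 3, also not called (log2 fold change -4.01, SE 1.99, adjusted p = 0.121). DESeq2 called it in WT (adjusted p = 0.0243), and without the 5 double-hyphen libraries edgeR called it in both labels (0.0491 in WT and 0.0328 in KO). Over the alternatives its adjusted p ran from 0.0155 to 0.205 in WT and from 0.0328 to 0.535 in KO. Over both labels together it was called (-5.63, SE 1.93, adjusted p = 0.0218), though not when the day 0 library numbered 3 of KO (0.0641) or of WT (0.0514) was left out. The KO library numbered 2 was at 0 for Prss34 on all 3 days, while it held 293, 148 and 7 counts of Prg2.

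Mcpt8, the protease by which mouse basophils are usually recognised, was low throughout, with 2 to 66 counts per library. It had 4, 2 and 28 counts in WT on day 0, 14, 7 and 15 in libraries 1a, 1b and 2 on day 1, and 24, 15 and 21 on day 3. In KO it had 25, 5 and 64 on day 0, 10, 8 and 66 on day 1, and 10, 11 and 46 on day 3. The days overlapped in both labels. From day 0 to day 3 the fitted change was 0.39 on the log2 scale (SE 1.02, adjusted p = 0.766, edgeR) in WT and -0.81 (SE 0.98, adjusted p = 0.523) in KO. The value rested on single libraries, since it was -0.06 in WT without WT day 0 library 2 and 2.18 without WT day 0 library 3, and 0.28 in KO without KO day 0 library 3. Prss34, Cpa3 and Ms4a2 were at 0 counts in WT on day 3, and which cells held the Mcpt8 counts was not tested.

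Cpa3 and Ms4a2 were too low for the fit. Cpa3 had 2, 2 and 3 counts in WT on day 0 and 0 on day 3, and in KO 5, 0 and 51 on day 0 and 7, 0 and 7 on day 3. Ms4a2 never passed 10 counts, which it reached in KO day 1 library 3, and it was at 0 in 10 of the 18 libraries, WT day 3 included. Averaged over the labels, the day 3 minus day 0 difference of log2 CPM was -1.06 for Cpa3 and -0.56 for Ms4a2, and neither passed the test (exact 2-sided permutation of the days within labels over 6 against 6 libraries, p = 0.18 and 0.26, smallest possible p = 0.005).

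**Figure D2:**
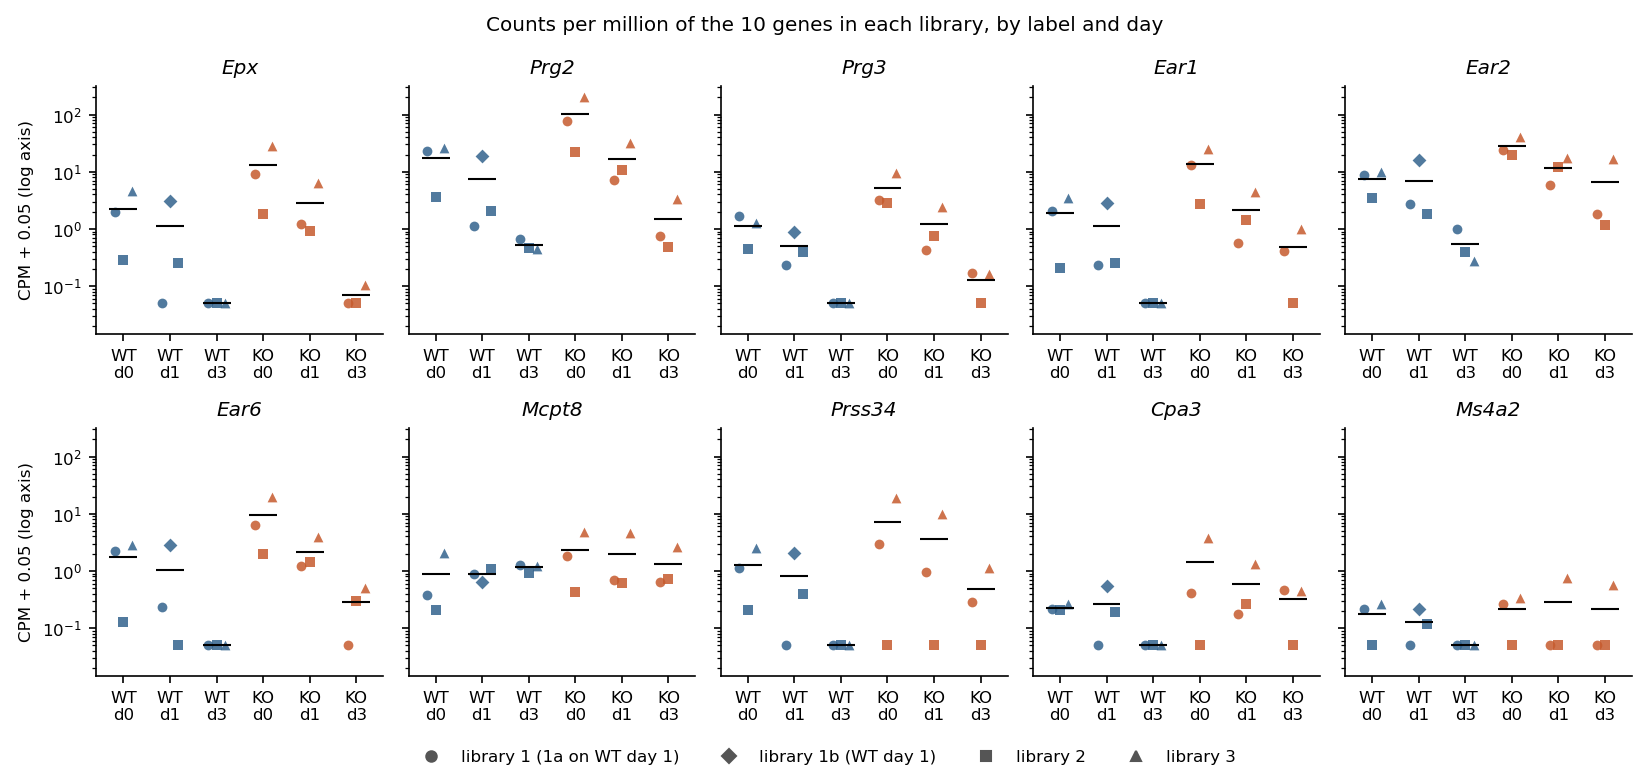
CPM of each of the 10 genes by label and day, on a log axis after adding 0.05, with 1 point per library and a black line for the mean of 3. Points at the bottom of a panel are libraries with 0 counts. The means of the eosinophil genes lie lower on day 3 than on day 0 in both labels, the days overlap for Mcpt8, and KO library 3 is the highest of its 3 for all 10 genes on days 0 and 1.

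Counted together, 6 of the 8 genes tested were called lower on day 3 in WT (Epx, Prg2, Prg3, Ear1, Ear2 and Ear6), where 26.5% of all genes tested were called lower, and none was called higher. In KO 5 were called lower (the same without Ear2) against 22.3% of all genes. The filter for the test drew on all 18 libraries. With only the day 0 and day 3 libraries of the label compared, 3 of the 10 genes were tested and 2 called in WT. In KO 8 were then tested and 5 called. The 10 genes were also chosen with earlier results of these data known, so the shares of all genes give a scale and not a test. At the study's own threshold (unadjusted p under 0.05 and a fold below 0.66) 6 of 8 passed as lower in each label, against 22.6% of all genes in WT and 19.0% in KO. The 3 day 3 libraries all lay below the 3 day 0 libraries for 7 of 8 genes in WT (all but Mcpt8), against 31.0% of all genes, and for 6 of 8 in KO (all but Mcpt8 and Prss34), against 29.4%. With levels per library total in place of CPM, a scaling added after the data were seen, these counts were 7 in WT and 5 in KO, where Ear2 then overlapped. In WT the lack of overlap of Epx, Ear1, Ear6 and Prss34 rested on 3, 2, 1 and 2 counts in day 0 library 2, against 0 on day 3. The median log2 fold change of the 8 was -7.15 in WT, or -4.73 with the 5 genes that were at 0 on day 3 set at their bounds, and -5.09 in KO. The median over all genes tested was -0.03 in WT and -0.005 in KO. Over both labels 7 of 8 were called lower (all but Mcpt8), against 32.0% of all genes. In bulk RNA, fewer cells of a type and less RNA in each such cell cannot be told apart.

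**Figure D3:**
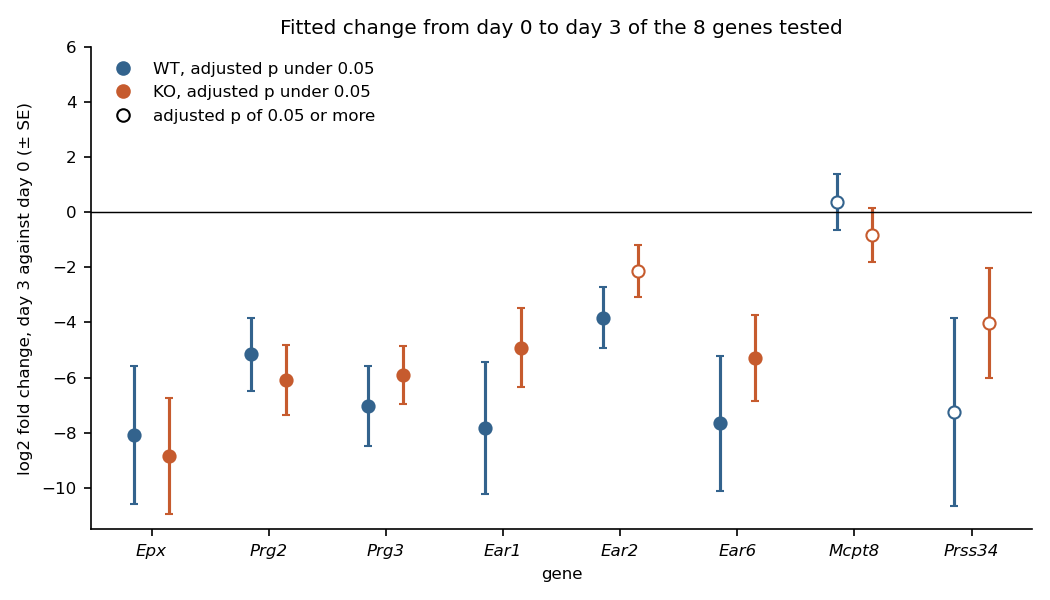
Fitted log2 fold change from day 0 to day 3 of the 8 genes tested, with its standard error, in WT (blue) and KO (orange). Filled points have an adjusted p under 0.05 (6 in WT, 5 in KO). In WT the values of Epx, Prg3, Ear1, Ear6 and Prss34 are set against groups at 0 counts and so depend on the fit.

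The make-up of the summed counts of the 10 genes differed between the days. On day 0 Prg2 supplied 43.0% to 55.5% of them in the WT libraries and Mcpt8 0.81% to 3.80%. On day 3 in WT, with only 28 to 54 counts left per library, Prg2 supplied 21.9% to 25.0% and Mcpt8 44.4% to 65.6%. In KO on day 3 Ear2 was the largest part, at 42.2% to 63.6%, after 11.7% to 37.8% on day 0, and Mcpt8 made up 10.1% to 27.5%. Prg2 outnumbered Ear2 in all 6 libraries of day 0 (1.04 to 4.88 counts of Prg2 per count of Ear2) and was below it in 4 of 6 on day 3 (0.20 to 1.75).

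**Figure D4:**
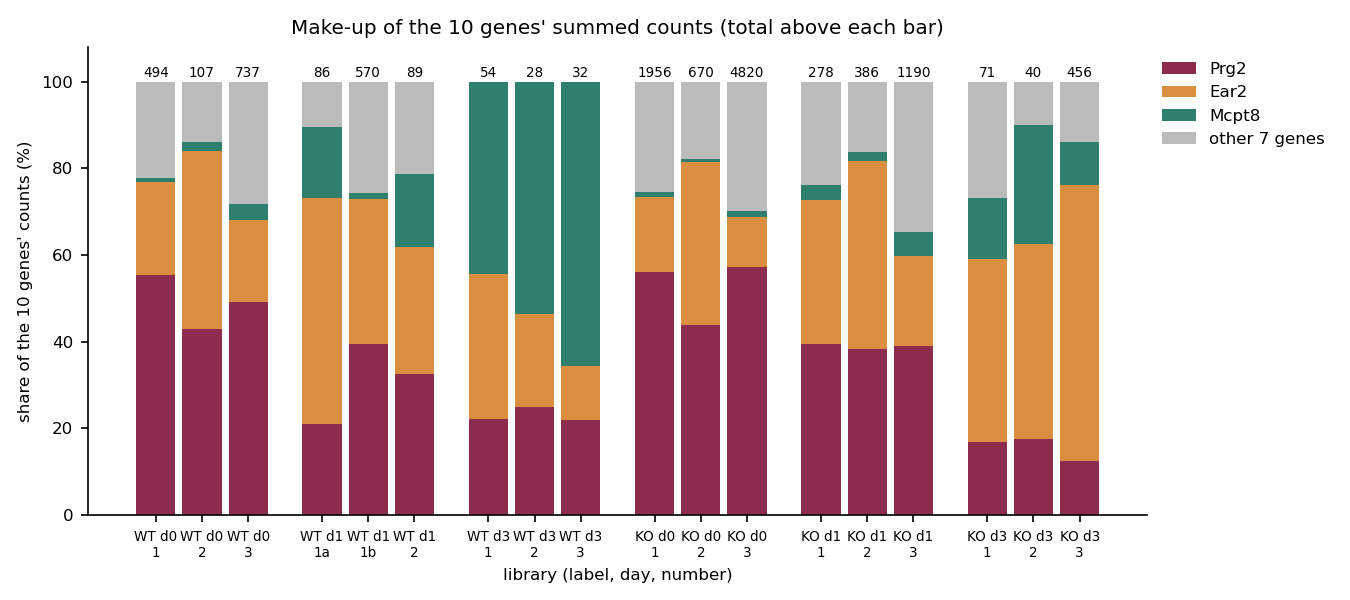
Share of the summed counts of the 10 genes taken by Prg2, Ear2, Mcpt8 and the other 7 genes in each library, with the total count above each bar. Prg2 is the largest block in the 6 libraries of day 0, Mcpt8 in the 3 of WT day 3 and Ear2 in the 3 of KO day 3. The totals of day 3 are as low as 28 counts in WT and 40 in KO.

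On day 1 the libraries disagreed within groups. In WT, library 1b had 225 counts of Prg2, 37 of Epx and 191 of Ear2, while libraries 1a and 2 had 18 and 29 of Prg2, 0 and 3 of Epx and 45 and 26 of Ear2. Library 1b was the highest of the 3 for 9 of the 10 genes (all but Mcpt8), against 40.7% of all genes tested. No member was called between days 0 and 1 in WT (edgeR, 0 of 8 at an adjusted p under 0.05, against 2.35% of all genes, and 0 of 8 at an unadjusted p under 0.05, against 20.5%). DESeq2 also called 0.

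In KO the day 1 libraries had 110, 148 and 463 counts of Prg2 and 6, 10 and 34 of Prg3, each below the same-numbered library of day 0. No member was called (edgeR, 0 of 8 against 0.0211% of all genes, DESeq2 also 0), and 2 of 8 had an unadjusted p under 0.05, against 10.2% of all genes. These were Prg2 (log2 fold change -2.60, SE 1.05, adjusted p = 0.429) and Prg3 (-2.16, SE 0.81, adjusted p = 0.398).

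Between days 1 and 3, 4 of 8 were called lower in WT, against 19.3% of all genes (edgeR). They were Prg3 (adjusted p = 0.0146), Ear2 (log2 fold change -3.71, SE 1.10, adjusted p = 0.0201), Prg2 (-3.88, SE 1.31, adjusted p = 0.0351) and Ear1 (adjusted p = 0.049), and 6 passed the study's threshold as lower, against 16.7%. The count was 0 without WT day 1 library 1b, 2 without WT day 3 library 1 and 1 without WT day 3 library 2 or 3, and without library 1b the log2 fold change of Prg2 was -1.64 (adjusted p = 0.398). In KO 3 of 8 were called lower, against 15.5% of all genes, and the same 3 passed the study's threshold, against 14.1%. They were Epx (log2 fold change -6.62, SE 2.11, adjusted p = 0.0339), Prg2 (-3.49, SE 1.17, adjusted p = 0.0374) and Prg3 (-3.74, SE 1.04, adjusted p = 0.0183). With library 3 of day 1 or library 2 of day 3 left out the count was 0, and with library 1 of day 3 left out it was 1.

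Between the labels all 8 genes had a higher fitted level in KO on each day, and edgeR called none of them. On day 0 the KO to WT log2 difference ran from 1.43 (Mcpt8) to 2.87 (Ear1, SE 1.28). Ear1, Prg2 and Prg3 had an unadjusted p under 0.05 (3 of 8, against 7.59% of all genes), and their adjusted p was from 0.558 to 0.648 (edgeR, 0 of 8 called against 0.119% of all genes, DESeq2 also 0). The 3 KO libraries lay above the 3 WT libraries for Ear2 (19.4 to 41.0 against 3.40 to 9.94 CPM) and Prg3 (2.77 to 9.53 against 0.39 to 1.65 CPM), 2 of 8 against 4.88% of all genes. On day 1 the counts were 0 of 8 called (edgeR, 0.112% of all genes, DESeq2 also 0), 0 of 8 at the unadjusted threshold (7.9%) and 0 of 8 without overlap (6.83%).

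On day 3 Ear2 had 30, 18 and 290 counts in KO and 18, 6 and 4 in WT (1.10 to 16.4 against 0.22 to 0.93 CPM). The fitted log2 difference was 3.64 (SE 1.10, adjusted p = 0.281, edgeR), and it was the one gene of 8 with an unadjusted p under 0.05 (10.7% of all genes) and the one whose labels did not overlap (15.9%). A count of 1 of 8 is near both shares. The fitted difference was larger for Ear1 (5.78, SE 2.68), Prss34 (5.77, SE 3.67) and Ear6 (4.87, SE 2.87), each set against 0 counts in WT. The edgeR test called 0 of 8 (0.14% of all genes) and the DESeq2 Wald test called Ear2 (adjusted p = 0.0124), 1 of 8 against 1.65%. Without KO day 3 library 3 the log2 difference of Ear2 was 1.49 (edgeR, adjusted p = 0.915). No difference between the labels in the change from day 0 to day 3 was detected for the 8 genes (edgeR interaction term, 0 of 8 called against 0.0% of all genes, and 0 of 8 at an unadjusted p under 0.05 against 5.4%, DESeq2 also 0).

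Among the KO libraries the one numbered 3 was usually the highest. It was so for all 10 genes on day 0 and on day 1 and for 8 of 10 on day 3 (all but Prg3 and Cpa3), and so on all 3 days for 8 of 10 genes, against 10.2% of all genes tested. Prss34 had 259, 143 and 19 counts in KO library 3 on days 0, 1 and 3, and at most 41, 14 and 4 in the other KO libraries. Without the 3 KO libraries numbered 3, a choice made after their counts were seen, the KO to WT log2 difference on day 0 was 1.54 for Prg2 (2.53 with them) and 1.46 for Prg3 (2.25 with them), and on day 3 it was 0.26 for Prg2 (1.61 with them) and 3.06 for Prg3 (3.39 with them). The count of genes called lower on day 3 against day 0 in KO was then 4, and 6 in WT. Without the 5 double-hyphen libraries, also chosen after their counts were seen, these counts were 6 in KO and 7 in WT, with all 10 genes then tested.

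Other genes expressed by these cells were taken from lists. Some of them are also expressed by other marrow cells, and which cells their counts came from was not tested. Of 10 further eosinophil genes, 7 were in the table and 4 were tested, and 3 of these 4 were called lower on day 3 in each label. Cebpe, a transcription factor of granule formation that is not particular to eosinophils, fell from 10.2 ± 6.26 to 0.50 ± 0.02 CPM in WT (adjusted p = 0.00172, edgeR) and from 32.5 ± 14.6 to 2.32 ± 2.36 in KO (0.00306). Alox15, a lipoxygenase of eosinophils and some macrophages, fell from 2.55 ± 3.10 to 0.07 ± 0.06 CPM in WT (0.0201) and from 7.44 ± 6.03 to 0.46 ± 0.48 in KO (0.0294). Siglecf, a surface receptor of eosinophils, fell in WT from 1.29 ± 0.66 to 0.05 ± 0.09 CPM (0.0261), and in KO had 3.52 ± 2.57 and 1.75 ± 2.22 (0.469). Ccr3, the eotaxin receptor, was counted in every library, at 35.8 ± 22.1 and 21.6 ± 4.77 CPM in WT (0.107) and 56.6 ± 6.08 and 22.4 ± 0.69 in KO, where it fell (0.01). Il5ra, the IL-5 receptor, was at most 0.95 CPM in any library.

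Of 18 further basophil and mast cell genes, 6 were tested and 3 of them (Il3ra, Hdc and Hpgds) were called lower on day 3 in each label. The other 3 (Kit, Il1rl1 and Gata2) were called in neither. Over both labels together 4 of the 6 were called lower and 1 higher. Hdc, the enzyme that makes histamine, fell from 10.3 ± 6.41 to 0.22 ± 0.13 CPM in WT (adjusted p = 0.000323, edgeR) and from 39.6 ± 27.4 to 2.49 ± 1.79 in KO (0.00123). Il3ra, the IL-3 receptor chain, fell from 63.9 ± 22.4 to 30.7 ± 4.58 CPM in WT (0.0138) and from 82.5 ± 28.1 to 43.5 ± 2.50 in KO (0.0304). Hpgds, a prostaglandin D synthase that macrophages also express, fell from 247.7 ± 49.3 to 68.4 ± 16.8 in WT (0.000291) and from 208.4 ± 48.1 to 76.4 ± 14.9 in KO (0.00223). Il1rl1, the IL-33 receptor, had higher means on day 3, with 1.27 ± 1.26 and 3.86 ± 1.92 CPM in WT (0.0502) and 1.76 ± 0.14 and 4.40 ± 1.18 in KO (0.1). Gata2, a GATA factor of mast cells and basophils, had 0.39 ± 0.27 and 1.09 ± 0.43 CPM in WT (0.144) and 1.26 ± 1.19 and 0.71 ± 0.16 in KO (0.405). Fcer1a, the IgE-binding chain that works with Ms4a2, was at 0 in 16 of 18 libraries, and its highest level on day 0 was 1.31 CPM. Kit, the stem cell factor receptor of mast cells and progenitors, had 3.91 ± 2.76 and 1.38 ± 0.80 CPM in WT (0.106) and 10.1 ± 6.54 and 4.83 ± 2.57 in KO (0.24). The mast cell proteases Tpsab1, Mcpt1 and Mcpt2 and the receptor Mrgprb2 had 0 counts in every library. Among genes shared with other marrow cells, 5 of 8 tested were called lower in WT (Gata1, Csf2rb, Csf2rb2, Fcer1g and Adora3) and 6 of 8 in KO (the same and Serpinb2), and Il13ra1 and Ltc4s were called in neither (edgeR). Gata1, a GATA factor of these cells and of red cells, was at 0.63 ± 0.50 CPM on day 0 and 0 on day 3 in WT and at 2.28 ± 0.94 and 0.06 ± 0.10 in KO (adjusted p = 0.0074 and 0.00456).

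Several lists of markers of other marrow cells held genes called lower on day 3, as the 10 genes did, and the neutrophil granule genes are given first. All 12 neutrophil granule genes were called lower on day 3 in each label (edgeR), with a median log2 fold change of -5.03 in WT and -3.82 in KO. Their summed level was 788.4 to 3406 CPM in WT on day 0 and 43.9 to 81.0 on day 3, and 4127 to 13382 and 116.9 to 1302 in KO. The summed level of the 10 genes was 8.28 to 52.7 and 1.65 to 2.79 CPM in WT, and 51.5 to 350.7 and 2.45 to 25.8 in KO. Both sums were lowest in WT day 0 library 2 among the day 0 libraries, highest in KO library 3 on each day among the KO libraries, and highest in library 1b on WT day 1 (47.5 CPM for the 10 genes and 2447 for the neutrophil genes, against 5.17 and 422.5 in library 1a).

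**Figure D5:**
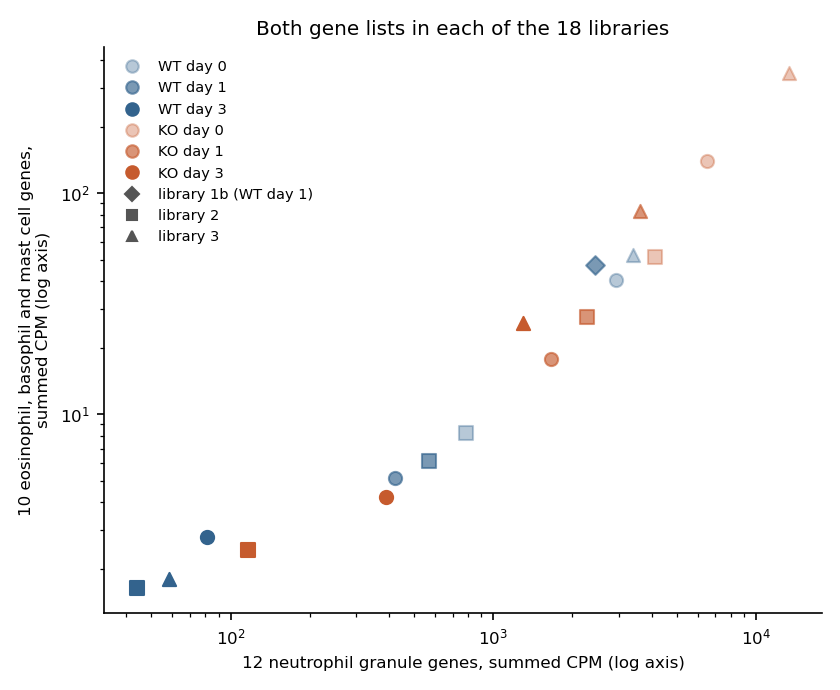
Summed CPM of the 10 genes against summed CPM of 12 neutrophil granule genes in the 18 libraries, both on log axes. Colour gives the label, shade the day and shape the library number. The WT libraries of day 3 lie at the lower left, with 1.65 to 2.79 CPM on the vertical axis, KO day 0 library 3 at the upper right with 350.7, and KO day 3 library 3, with 25.8, among the libraries of day 1.

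Among 7 B cell markers 5 were called lower on day 3 in WT and 3 in KO, with a median log2 fold change of -6.49 and -2.48. Over both labels 6 were called lower and 1 higher (Ebf1, 17.6 ± 2.56 CPM in WT on day 3). Their summed level was 7.50 to 48.0 and 16.8 to 21.2 CPM on days 0 and 3 in WT and 21.1 to 55.4 and 30.9 to 41.8 in KO. Of 7 stromal markers 4 rose in WT and 6 in KO, from summed levels of 85.9 to 4674 CPM to at least 10906 CPM in WT and from 1071 to 3641 to at least 20262 in KO. Of the macrophage markers, 7 of 9 lines of the table were called lower in each label, and 9 of 10 osteoclast markers were called higher in each. Of 7 markers of T and NK cells only Nkg7 was tested, and it was called lower in both labels (log2 fold change -5.29 in WT and -3.33 in KO). The summed level of that list was at most 9.39 CPM in any library. The 4 erythroid genes tested were called in neither. The part of these other cells in the values of the 10 genes was not tested.

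As a description of likeness, Pearson's r of log2 CPM was taken over the 18 libraries, which share days and labels and so are not independent points. Prg2 was most like Rab27a (0.989), a granule transport gene, Cebpe (0.985) and Mapk13 (0.984), and Epx like Far2 (0.953), Rab27a (0.952) and Myb (0.952), the progenitor transcription factor. Prg3 was nearest to Ppbp (0.971), Mapk13 (0.97) and Mmp25 (0.962), Ear1 to Acap1 (0.981), Trem1 (0.975) and Il18rap (0.97), and Ear6 to Mmrn1 (0.975), Myb (0.954) and Ms4a3 (0.95). Ear2 was nearest to the neutrophil granule genes Lcn2 (0.971) and S100a9 (0.968) and to Wfdc21 (0.971). Prss34 was nearest to Dgat2 (0.89), Hcar2 (0.866) and 4833407H14Rik (0.866), and Mcpt8 to Lrrk2 (0.955), Hmgn2-ps1 (0.859) and Arg1 (0.842). The nearest member was Prg2 for Epx, Prg3, Ear1 and Ear6 (0.954 to 0.975), Epx for Prg2 and for Prss34 (0.975 and 0.826), Ear1 for Ear2 (0.921) and Prss34 for Mcpt8 (0.647).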

How the data were processed

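mRNA libraries of 18 BMDM samples were compared as label by day groups. The deposited table held read counts per gene and FPKM, which the authors made from their alignments; the submitters' processing notes name GRCm38.p4, mm10 and StringTie, and the aligner and counting program are not given in the sources used here. The FPKM values were deposited by the authors as normalised per transcript length and depth, and served only to set genes beside each other. The deposited counts were tested with edgeR 4.0.16 in R 4.3.3 (filterByExpr, TMM scaling, quasi-likelihood F-test, all 18 libraries as 6 groups) with Benjamini-Hochberg adjustment over 14241 genes, with calls made below an adjusted p of 0.05. CPM values are counts scaled to the TMM-adjusted library size. DESeq2 1.42.0 was an alternative. The script was tested on simulated counts. Library totals were 13789775 to 17559958, and intervals and floors (3 counts over a group) cover counting error only.

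The members and the gene lists were chosen with earlier results of these data known. All 10 members are named, and a gene of another list is named with values only if its highest group mean was at least 1 CPM or it is a defining receptor. The mast cell genes at 0 in every library were named outside this rule after their values were seen. For likeness the 3 tested genes outside the members with the highest r are named. Of 34745 gene identifiers 34344 were in GENCODE M21, and 27759 had the same position there (8 of the 10 members, not Mcpt8 and Prss34).

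In KO, deviations from the group means were positively correlated between libraries with the same number. The r was 0.13, 0.135 and 0.398 between days 0 and 3 and 0.218, 0.156 and 0.34 between days 1 and 3. A replicate block within label is therefore given where it changes a KO call. In WT the correlations between days 0 and 3 were 0.111, -0.023 and 0.0514. Between days 0 and 1 they were -0.464 (library 1a), 0.604 (library 1b) and 0.138 in WT and 0.0536, 0.501 and 0.598 in KO. There the pairs whose titles differed in hyphen style had -0.464 and 0.0536, and those of the same style had 0.138 to 0.604. The part of the title style in these values was not tested. The lowest KO values between days 0 and 3 lie close to the highest WT value. These r therefore do not settle whether the numbers pair the libraries in either label.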

Additional observations from a re-analysis of the deposited data

How the results depend on the processing

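Of 860 alternative values of 51 single-gene log2 fold changes, 769 kept their direction and their side of the threshold, 54 lost the threshold, 24 gained it and 13 changed sign or went to 0.0. The sign changes were in Mcpt8, and Epx went to 0.0 under 2 settings. For Mcpt8 the day 3 against day 0 value became -0.09 in WT with title hyphen style as a covariate, -0.06 without WT day 0 library 2, and 0.28 in KO without KO day 0 library 3, with ranges of -0.06 to 2.18 in WT and -1.83 to 0.28 in KO over the libraries left out. Its day 3 against day 1 value became -0.1 in WT with a replicate block over all libraries, -0.01 with a replicate block within label and -0.22 with the hyphen covariate, and in KO 1.11 without KO day 1 library 3 (-1.6 to 1.11 over the libraries left out) and 0.1 without the 3 KO libraries numbered 3. Its KO to WT value on day 3 became -0.27 with the replicate block, -0.79 without KO day 3 library 3 (-0.79 to 0.57 over the libraries left out) and -0.78 without the 3 KO libraries numbered 3. That of Epx on day 3 was 0.0 to 2.18 over the libraries left out and 0.0 under both of the last settings, which leave Epx at 0 counts in all libraries compared.

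The count of genes called on day 3 against day 0 was 6 in WT. It was 3 with a filter of at least 5 CPM in at least 3 libraries and 2 with only the groups compared, settings under which only 3 of the 10 genes were tested, and 5 to 6 with 1 library left out. In KO it was 5, with 2 under the stricter filter (3 tested) and 3 to 6 with 1 library left out. Over both labels it was 7, with 3 under the stricter filter (3 tested) and 6 to 8 with 1 library left out. On day 3 against day 1 in WT it was 4, with 2 under the stricter filter, total-count scaling, the hyphen covariate or the mean of both libraries numbered 1, 1 with only the groups compared, 7 with the replicate block, 0 without the 5 double-hyphen libraries and 0 to 6 with 1 library left out. In KO it was 3, with 0 without the 3 KO libraries numbered 3 and 0 to 3 with 1 library left out. On day 3 DESeq2 called 1 gene between the labels, and the remaining counts between labels, between days 0 and 1 and for the interaction were 0 under all alternatives. Except where the number tested is given, the cause was not tested.

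The replicate block within label changed no KO call other than that of Ear2. In WT the replicate block gave 7 called on day 3 against day 0. Total counts in place of TMM shifted the median of all genes between days 0 and 3 by 0.362 (log2) in WT and 0.292 in KO. Without a filter 19 of 20 counts of the other lists stayed within 1.5 times, and the T and NK cell count in WT went from 1 to 2. Counts of 0 to 66 per library limit what can be seen for Mcpt8, Cpa3 and Ms4a2.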
